A study of Canis lupus familiaris with 32 samples.

Results

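The genes described here are those whose level in the hip joint capsule of dogs with hip dysplasia stood outside the levels of both adult control and neonatal capsule. They were chosen by their own capsule values: 53 genes (called above) had a median of at least 5 CPM in affected capsules and at least 2 times the medians of control and of young capsules, and 43 genes (called below) had an affected median of at most 1/2 of both other medians, each of these at least 5 CPM. CPM gives the fragments of a gene relative to the library total. These are 96 of 24580 genes listed, and 2 other genes are left out by the rule, although neither met its thresholds. The above genes are 0.497% of the 10667 genes with an affected median at the minimum, and the below genes are 0.429% of the 10022 genes with both other medians at the minimum. Since the capsule values chose the genes, they are given as a description and no difference between capsule groups was tested.

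The joint capsule is a fibrous sleeve lined by synovium that closes the hip joint, and the teres ligament is a cord within the joint that ties the femoral head to the acetabulum. Both hold the femoral head in its socket. In hip dysplasia the joint becomes loose during growth, and the capsule and ligament are known to thicken and to become inflamed as the disease goes on. Both tissues are made mostly by fibroblasts, with synovial lining cells, vessels, fat and immune cells beside them, and all of these change with growth after birth.

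RNA depleted of ribosomal RNA was sequenced in 32 libraries from 25 dogs. Affected capsules came from 4 dogs, of which 1 was adult (replicate 1) and 3 were aged 4 months (replicates 2 to 4). Control capsules came from 5 adults and young capsules from 6 dogs under 1 month of age. Affected ligaments came from 7 dogs, 4 adult (replicates 1 to 4) and 3 aged 4 months (replicates 5 to 7), control ligaments from 3 adults and young ligaments from 4 dogs under 1 month, and 3 libraries were of whole embryonic hip. Breed, sex, side and stage of disease are not in the labels used here. No unaffected dog was aged 4 months, so for those dogs disease and age cannot be told apart. The 3 dogs aged 4 months gave both a capsule and a ligament, as did 1 control dog and 3 young dogs, while none of the 4 dogs with an adult affected ligament gave a capsule. The identifiers of the dogs aged 4 months begin like that of 1 other dog, which gave young capsule replicate 2 and young ligament replicate 2; whether these dogs are related is not in the labels.

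The libraries held 2857235 to 9895143 fragments (capsules up to 6351800). In the affected capsules the 10 most abundant genes held 24.7% to 30.4% of fragments, against 18.7% to 25.3% in control and 21.5% to 32.2% in young capsules. Affected capsule replicate 3 stood apart from the other affected capsules in that 10.8% of genes lay below both other medians by the fold in this library alone. The genes are listed by Ensembl identifier only, and the files do not pair these with gene names (0 matched in the name table used here). The functions of the genes are therefore not given, the tissue labels could not be checked against marker genes, and copies of near-identical genes could not be recognised.

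In summed level the below genes were low in the 3 capsules of dogs aged 4 months and not in the adult affected capsule. Summed over the 43 genes, the 3 capsules aged 4 months stood at 517.1, 562.4 and 540.0 CPM (replicates 2, 3 and 4), while the adult affected capsule stood at 2023 CPM. The 5 control capsules ran from 1202 to 1989 CPM and the 6 young capsules from 1596 to 2004 CPM. The 3 capsules aged 4 months were thus below every control and young capsule, and the adult affected capsule was above all of them. A low sum in these 3 capsules was nearly fixed by the rule, since they are among the 4 whose median chose the genes. That top place of the adult affected capsule rested on the gene ENSCAFG00000029172, which held 653 CPM of its sum. The same gene held 106 to 559 CPM in control and 162 to 264 CPM in young capsules. In bulk tissue, fewer cells of a type and less RNA per cell cannot be told apart.

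Gene by gene the split was less complete, and here too the rule nearly fixed the part of it at 4 months. The 3 capsules aged 4 months are among the 4 whose median chose the genes. The median of the 3 capsules aged 4 months was lower than the control median in 43 of 43 below genes and lower than the young median in 43 of 43, with a median log2 difference of -1.48 and -1.58 (0.5 CPM added to each value). In the adult affected capsule the median log2 difference was 0.16 from control and -0.21 from young capsules, and 24 of 43 genes were above the control median. That library was the least low of the 4 affected capsules for 33 of the 43 genes, lay within the range of the 11 control and young capsules for 24, and was above both other medians for 18. By the fold alone, the below genes were past both other medians in 9 of 43 in replicate 1 (3.07% of all genes were in that library), 32 in replicate 2 (1.27% of all genes), 39 in replicate 3 (10.8%) and 34 in replicate 4 (2.55%).

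**Figure D1:**
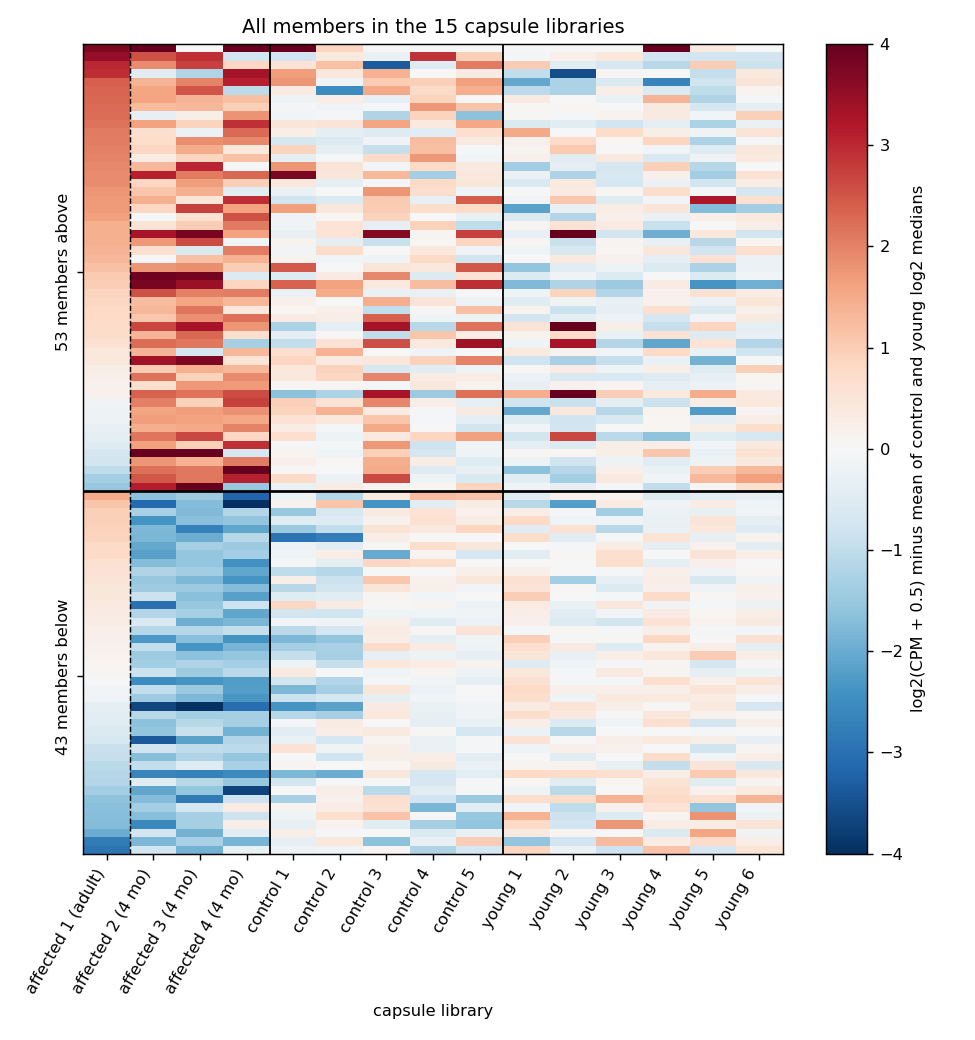
Each row is 1 of the 96 genes and each column 1 of the 15 capsule libraries; colour is log2(CPM + 0.5) minus the mean of the log2 control and young medians, cut at 4 in both directions, with genes ordered within each set by the adult affected capsule. The lower block is blue in the 3 capsules aged 4 months and mixed in the adult affected capsule, which was above both other medians for 18 of the 43 genes.

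Complete separation was rare, although the choice of genes by these capsule values raises its share over that of all genes. All 4 affected capsules lay below all 11 other capsules in 2 of 43 below genes (0.279% of all genes did so), and the 3 capsules aged 4 months did so in 22 of 43 (1.53% of all genes). Among the above genes, all 4 affected capsules lay above all 11 others in 1 of 53 (0.0281% of all genes), and the 3 capsules aged 4 months in 7 of 53 (0.262% of all genes). For 26 of the 53 above genes at least 1 control or young capsule exceeded the affected median, and for 10 of the 43 below genes at least 1 control or young capsule was under it.

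Both lists lie close to their thresholds. Over the above genes the affected median was 2.02 to 19.7 times the nearer of the other medians (median 2.43 over the 52 genes where that median was not 0). Over the below genes this ratio was 0.111 to 0.499 (median 0.433). The nearest above gene inside had a ratio of 2.02 and the nearest outside 1.97; for the minimum level the values were 5.18 and 4.87 CPM. The nearest below gene inside had a ratio of 0.499 and the nearest outside 0.503. Affected medians of the above genes ran from 5.18 to 400 CPM, with 21 of 53 under 10 CPM, and those of the below genes from 1.36 to 81.3 CPM, with 29 of 43 under 10 CPM.

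ENSCAFG00000012011 is the first of the below genes in the ranking used for naming, which puts complete separation first and then the ratio. It stood at 5.70, 3.23, 4.88 and 0.712 CPM in affected capsules 1 to 4 and at 15.4, 18.4, 7.05, 11.4 and 14.5 CPM in control capsules 1 to 5. Young capsules had a lowest value of 6.99, a median of 16.2 and a highest value of 24.0 CPM. The highest affected capsule (5.70) lay under the lowest of the others (6.99), a narrow gap, and the affected libraries held 73 fragments of the gene in all.

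ENSCAFG00000010874 is the other below gene with all 4 affected capsules under all others. Its affected capsules stood at 48.1, 28.03, 40.1 and 31.3 CPM (36.9 ± 9.04, SD, n = 4), its control capsules at 91.3, 52.3, 110, 112 and 68.4 CPM (86.7 ± 25.9, n = 5), and its young capsules at 68.7, 92.7 and 155 CPM (lowest, median, highest). The adult affected capsule (48.1) was the highest of the 4 and lay just under the lowest control (52.3).

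ENSCAFG00000029172, singled out after its values were seen, shows the split by age class at a higher level. The adult affected capsule stood at 653 CPM and the 3 capsules aged 4 months at 74.4, 88.3 and 25.4 CPM. The control capsules stood at 202, 106, 308, 559 and 516 CPM and the young capsules at 162, 179 and 264 CPM (lowest, median, highest). The adult affected capsule was thus above every other capsule for this gene, and the capsules aged 4 months were below every other capsule.

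The above genes were less tied to 1 age class. The median log2 difference of the adult affected capsule was 1.13 from control and 1.36 from young capsules, and that of the capsules aged 4 months was 1.44 and 1.81. The adult affected capsule was the least high of the 4 for 22 of 53 above genes and lay within the range of the other 11 capsules for 31. By the fold alone, 26, 35, 39 and 34 of the 53 were past both medians in affected capsules 1 to 4. Over all genes the shares were 2.38%, 0.984%, 1.75% and 2.18%, and the choice of genes by these capsules favours the counts. Control capsules were nearer to the affected level than young ones for 33 of 53 above genes, and the control median was at least 2 times the young median for 18.

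Single libraries and few genes carried much of the summed level of the above genes. The sum stood at 1499 CPM in the adult affected capsule and at 3060, 3343 and 2448 CPM in the capsules aged 4 months. Control capsules ran from 712 to 2812 CPM, and 5 of the 6 young capsules from 617 to 742 CPM. Young capsule replicate 2 stood at 4085 CPM, above every affected capsule. The groups thus overlapped in the sum although each gene passed the rule on medians. Of the 4085 CPM, ENSCAFG00000001705, ENSCAFG00000013618 and another above gene held 921, 896 and 1868 CPM, so the place of this library leaned on few genes.

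**Figure D2:**
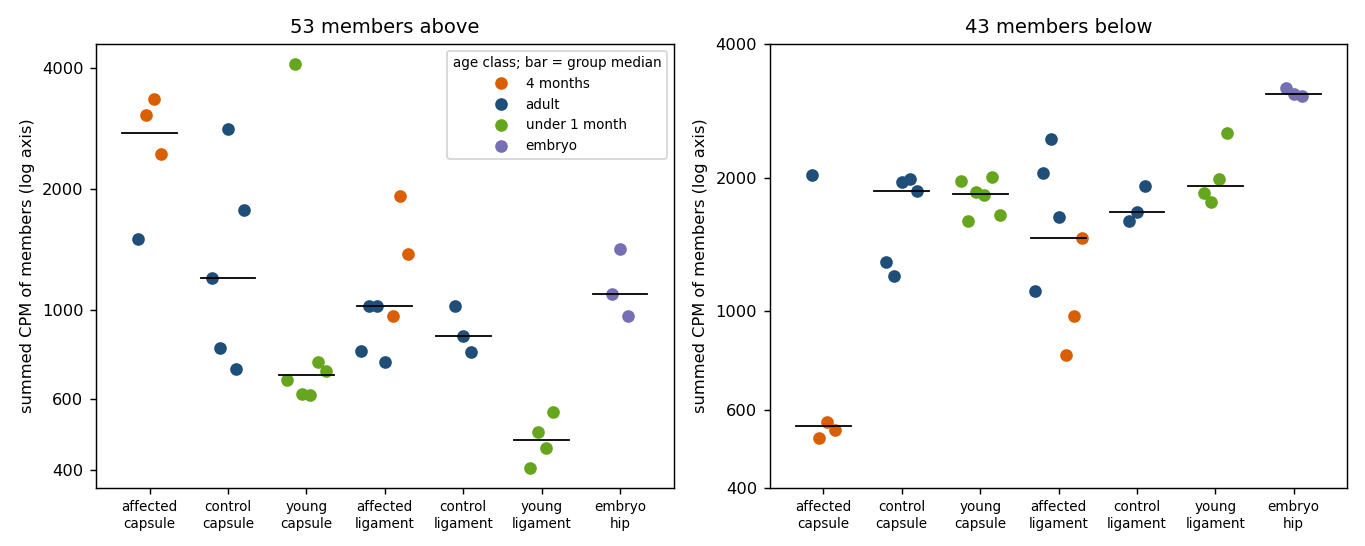
Points are libraries, coloured by age class, with the summed CPM of the 53 above genes (left) and of the 43 below genes (right) on a log axis, and bars are group medians. For the below genes the 3 capsules aged 4 months sit between 517 and 562 CPM and the embryonic hips between 3058 and 3179 CPM. For the above genes young capsule replicate 2 sits at 4085 CPM, of which 1868, 921 and 896 CPM are of single genes.

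ENSCAFG00000030601 is the above gene with all 4 affected capsules above all others. It stood at 7.68, 3.41, 6.57 and 3.795 CPM in affected capsules 1 to 4 and at 2.45, 1.24, 1.66, 3.29 and 2.55 CPM in control capsules 1 to 5. Young capsules ran from 0.803 to 2.44 CPM with a median of 1.17. The lowest affected capsule (3.41) and the highest control (3.29) nearly touched, and the gene had 105 fragments over the 4 affected, 47 over the 5 control and 49 over the 6 young capsules.

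ENSCAFG00000003016, the next above gene in the ranking, was present or absent by library rather than by group. It stood at 6.196, 187, 0 and 10.9 CPM in affected capsules 1 to 4. Control capsule 1 held 272 CPM, control capsule 2 held 0.413 CPM and the other 3 had no fragment, while 1 young capsule held 27.9 CPM, 1 held 0.161 CPM and 4 had none. A count of 0 allows up to 0.472 to 0.758 CPM in these libraries (3 fragments of the library total, counting error only). The highest control was above every affected capsule, and no ratio of medians is given because both other medians were 0. The same scatter was seen outside the capsule, with 0 in 5 of 7 affected ligaments, 0.306 to 88.1 CPM in young ligaments and 10.8 to 213 CPM in embryonic hip.

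A small set of above genes was high in capsule and near 0 in ligament. ENSCAFG00000001705 and ENSCAFG00000013618, singled out after their values were seen, are 2 of the 4 above genes whose median was under 1 CPM in affected, control and young ligament alike. ENSCAFG00000001705 stood at 138, 506, 716 and 156 CPM in affected capsules 1 to 4, at 41.3, 74.2, 661, 55.6 and 346 CPM in control capsules 1 to 5, and at 12.7, 35.03 and 921 CPM in young capsules (lowest, median, highest). Its highest value in any of the 14 ligaments was 2.73 CPM, and embryonic hip held 4.62 to 4.85 CPM.

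ENSCAFG00000013618 stood at 67.4, 262, 399 and 138 CPM in affected capsules 1 to 4, at 16.4, 30.6, 410, 18.5 and 186 CPM in control capsules 1 to 5, and at 21.0, 53.4 and 896 CPM in young capsules (lowest, median, highest). It had no fragment in the 3 control ligaments, which allows up to 0.198 CPM over the group, and at most 1.16 CPM in any other ligament. Embryonic hip held 57.0 to 78.98 CPM. For both genes the highest library of all was young capsule replicate 2, control capsules 3 and 5 were higher than affected capsules 1 and 4, and the groups overlapped.

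Across the 15 capsules these 2 genes varied together on the log2 scale (Pearson r = 0.922, Spearman rho = 0.846, n = 15 libraries, a description without a test). Another above gene, with 92.4, 426, 375 and 509 CPM in affected capsules 1 to 4, 1868 CPM in young capsule replicate 2 and ligament medians of 2.89 to 4.98 CPM, followed them (r = 0.712 and 0.919, rho = 0.682 and 0.918). The libraries share their depth and their tissue sampling, and all 3 genes were picked for this pattern. The level of these genes differed more between libraries within the control and young groups than between the group medians. The part that the sampled area of the capsule played was not tested.

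The below genes were short by the length that the deposited values imply, which was not checked against an annotation. Relative gene length was taken from the authors' scaled fragments and FPKM (fragments scaled by gene length and library) and set to 1 at the median of the 10814 genes at a level minimum. It had a median of 0.44 over the below genes (middle 50% of genes 0.137 to 1.02) against 1.02 over all genes that could have been below. Of the 43 below genes, 24 (55.8%) fell in the shortest 25% of all genes at the minimum. Over the above genes the median was 0.91 against 1.01, and 16 of 53 (30.2%) fell in it. Length was not used in the rule, and these shares are a description without a test.

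Short genes as a whole were not below the range of controls in the capsules aged 4 months, but were in part below that of young capsules. The shortest 25% of genes held 9.45%, 10.4% and 10.9% of fragments in the capsules aged 4 months and 8.99% in the adult affected capsule, against 8.97% to 11.1% in control and 10.2% to 13.2% in young capsules. The ranges of affected and control capsules overlapped. The median log2 level of the shortest 25% minus that of the other genes was -1.31 to -1.0 in the capsules aged 4 months. It was -1.32 to -1.11 in controls and -1.05 to -0.86 in young capsules. Affected capsules 2 and 4 (-1.31 and -1.17) lay under every young capsule, and affected capsule 3 (-1.0) lay within their range. The part of gene length in the below list was not tested.

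**Figure D3:**
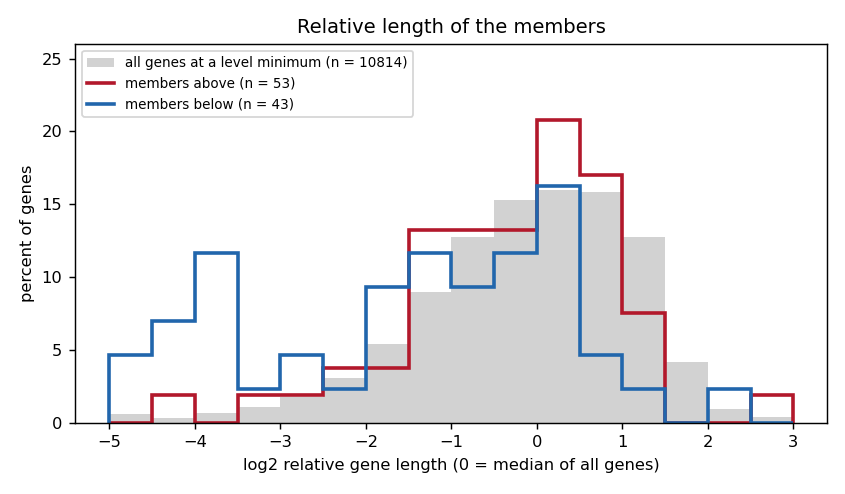
The histogram gives the percent of genes in each interval of log2 relative gene length, with 0 at the median of all genes at a level minimum (grey, n = 10814), for the above (red, n = 53) and below genes (blue, n = 43). The blue outline has a second group of genes far left of the grey one, and 55.8% of the below genes fall in the shortest 25% of all genes.

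The ligament gives values that the rule did not use, and the first question was whether the genes also differ between affected and control ligament. None of the above or below genes passed the test there (edgeR quasi-likelihood test, adjusted p under 0.05). Across all 12937 genes tested in 7 affected and 3 control ligaments, 0 were called (0.0% higher and 0.0% lower), with 1058 at an unadjusted p under 0.05 and 10 called by DESeq2. Of the 48 above genes tested, 38 had a positive log2 fold change, with a median of 0.53, against 0.03 over all genes. Of the 42 below genes tested, 30 were negative, and the median over the list was -0.19. Of the 7 affected ligaments, 3 are from the dogs aged 4 months whose capsules chose the genes. The median of the above genes was 0.24 without affected replicate 6, 0.32 without affected replicate 7 and 0.22 with only dogs that gave no capsule (4 affected and 2 control ligaments). The above genes that passed the low-count filter are not all 53, and a gene can pass it through the group where it is high.

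Among adults no gene of either list passed the test. The comparison of 4 adult affected with 3 control ligaments has 1 age class and no affected dog in common with the capsule data, while control ligament replicate 1 is from a dog that gave a control capsule. Of the 46 above genes tested, 24 had a positive and 22 a negative log2 fold change, with a median of 0.02, and of the 42 below genes 19 were positive and 23 negative, with a median of -0.08 (all 12505 genes: -0.02). Without control replicate 1, which leaves no dog shared with the capsule data, 33 of 47 above genes were positive and 14 negative, with a median of 0.22 (all genes: -0.01), and the below genes had a median of -0.06. In the full comparison 0.0% of all genes were called higher and 0.0% lower by edgeR, with 2374 at an unadjusted p under 0.05 and 62 called by DESeq2. Without control replicate 3, edgeR called 1850 of 12779 genes. It called 4 of 46 above genes (3 higher, 1 lower) and 2 of 42 below genes (1 higher, 1 lower). Both are smaller shares than that of all genes. A count of 0 at this number of dogs does not show that the levels were alike.

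Within affected ligaments some of these genes differed between 4 months and adulthood. Of 12619 genes tested, 6.24% were higher and 8.35% lower at 4 months. Of the 46 above genes tested, 4 were higher (8.7%) and 0 lower, close to the share of all genes, and their median log2 fold change was 0.49. Of the 42 below genes, 6 were lower (14.3%) and 0 higher, 32 had a negative fold change, and their median was -0.57 against 0.03 over all genes. The 6 that fell did so by log2 0.95 to 3.08. The dogs aged 4 months are those of the affected capsules that chose the genes, so this comparison shares its dogs with the rule.

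These counts depended on single dogs. The count over all genes moved with them, from 1841 to between 549 and 2203. Without affected replicate 6 the test called 1 of 47 above and 1 of 42 below genes (549 of 12817 genes in all). Without replicates 1, 2 or 3 it called 1 above gene each (1296, 803 and 826 genes in all), and without replicates 2 or 3 it called 3 below genes each. Leaving out replicate 5 gave 11 of 47 above genes, 10 higher and 1 lower (1230 of 12959 genes in all). Without replicate 7 it called 4 above genes (1 of them lower) and 4 below genes (1 of them higher) among 845 genes in all, and the median log2 fold change was 0.07 over the above genes and -0.81 over the below genes.

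ENSCAFG00000029172 was among the 6 below genes that fell. It stood at 113, 80.9 and 105 CPM in the 3 ligaments aged 4 months and at 268, 872, 1101 and 381 CPM in the 4 adult affected ligaments, without overlap. The log2 fold change was -3.08 (SE 0.57, edgeR adjusted p = 0.014), and the call was lost without affected replicate 6 (adjusted p = 0.057). Control ligaments stood at 245, 199 and 529 CPM and young ligaments at 176, 255, 321 and 591 CPM, all above the ligaments aged 4 months.

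ENSCAFG00000012011 fell as well. It stood at 10.7, 2.70 and 2.35 CPM in the ligaments aged 4 months and at 28.4, 34.3, 27.9 and 12.8 CPM in the adult affected ones, which do not overlap (log2 fold change -2.59, SE 0.60, edgeR adjusted p = 0.024). Leaving out replicate 2, 3, 6 or 7 ended the call (adjusted p up to 0.079). Control ligaments stood at 10.9, 12.9 and 16.9 CPM, and the adult affected ligaments did not pass the test against them (log2 fold change 1.16, SE 0.37, adjusted p = 0.25).

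ENSCAFG00000009569, also singled out after its values were seen, was the above gene with the largest rise among the 4. Its ligaments stood at 107, 339 and 151 CPM at 4 months and at 36.6, 26.5, 12.6 and 25.2 CPM in adult affected dogs (log2 fold change 2.64, SE 0.38, edgeR adjusted p = 0.0074), and it was called in 7 of 7 fits with 1 library left out. In capsule its 4 affected libraries stood at 176, 16.2, 9.43 and 228 CPM, so that affected capsules 2 and 3 were under every control capsule (22.5 to 73.1 CPM) although these dogs are affected ligament replicates 5 and 6. Ligament and capsule of the same dogs therefore did not rank alike for this gene.

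**Figure D4:**
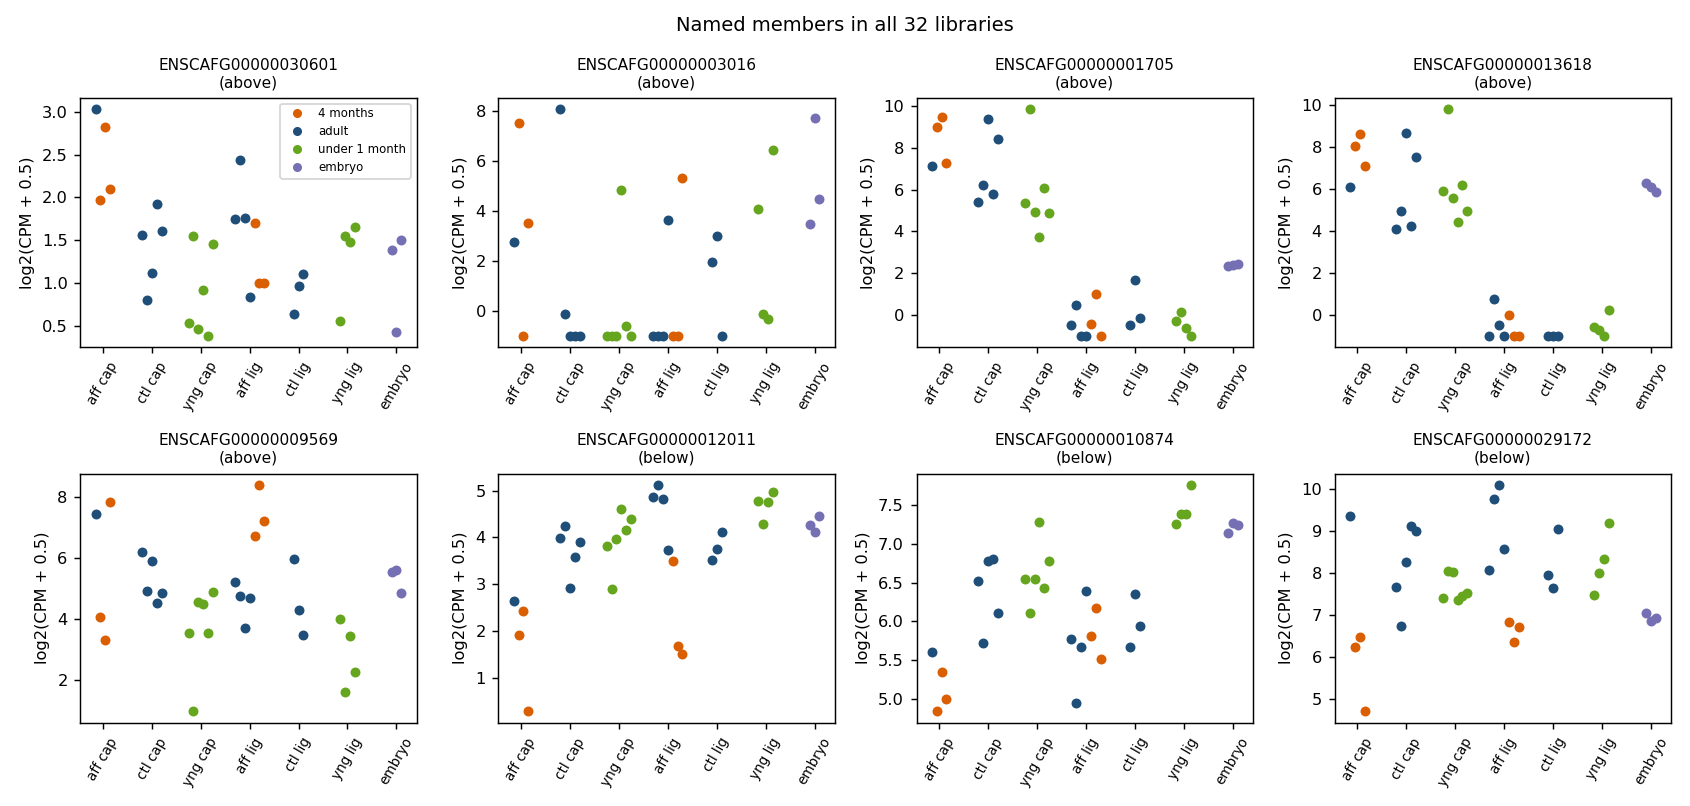
Each panel gives log2(CPM + 0.5) of 1 named gene in all 32 libraries by group (capsule, ligament, embryonic hip), coloured by age class. The 3 ligaments aged 4 months sit under the adult affected ones for ENSCAFG00000029172 and ENSCAFG00000012011, and ENSCAFG00000001705 and ENSCAFG00000013618 sit near 0 fragments in ligament.

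Affected ligaments were also set against young ligaments, the neonatal side of the rule. Of 12689 genes tested, 5.93% were higher and 6.12% lower in affected ligaments. Of the 46 above genes tested, 12 were higher (26.1%) and 0 lower, by log2 1.14 to 3.33, and the median over the 46 was 1.08 against 0.03 over all genes. Of the 42 below genes tested, 4 were lower (9.52%) and 0 higher, and the median was -0.65 with 36 negative. This comparison sets dogs of 4 months and older against dogs under 1 month, so age and disease cannot be told apart in it. It shares its affected libraries with the comparison against controls. Of its dogs, 3 of 7 affected and 3 of 4 young ones also gave a capsule that the rule used. The shares of the above and below genes are therefore not independent of the choice of genes. An above gene can also pass the low-count filter through the affected group.

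The count of above genes here rested on the young libraries. It was 2, 3 and 4 without young replicates 1, 3 and 4, and the count over all genes fell as well, from 1528 to 617, 581 and 791. In those fits the median log2 fold change over the above genes was 0.96, 1.07 and 1.14. With only dogs that gave no capsule, 4 adult affected ligaments stand against 1 young ligament, which is assumed to vary like the affected ones. That fit called 2 above genes (649 genes in all), and the medians were 0.74 over the above and -0.42 over the below genes. ENSCAFG00000009569 rose by log2 3.33 (SE 0.85, edgeR adjusted p = 0.027) from 15.4, 2.53, 10.4 and 4.32 CPM in young ligaments, and it was not called without young replicate 1, 3 or 4 (adjusted p up to 0.075), without the low-count filter (0.063) or against the 1 young ligament of a dog that gave no capsule (log2 fold change 1.25, 0.16).

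ENSCAFG00000010874 was lower in affected than in young ligaments. It stood at 152, 168, 167 and 217 CPM in the 4 young ligaments and at 30.2, 54.0 and 83.6 CPM in the 7 affected ligaments (lowest, median, highest), without overlap (log2 fold change -1.83, SE 0.23, edgeR adjusted p = 0.00052). It was called in 11 of 11 fits with 1 library left out. Control ligaments stood at 50.1, 81.0 and 61.1 CPM, inside the affected range, so in ligament this gene was not outside both other groups as it was in capsule.

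**Figure D5:**
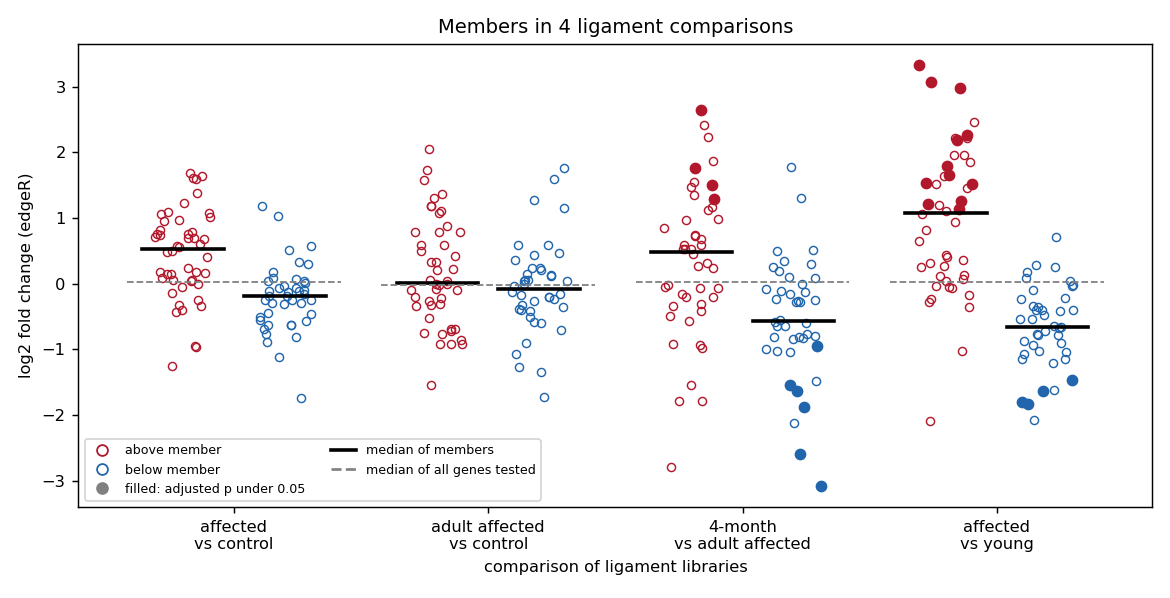
Each point is 1 gene of the above (red) or below list (blue) in 1 of 4 ligament comparisons, on the log2 fold change axis of edgeR; filled points had an adjusted p under 0.05, black bars are medians of the list and dashed lines medians of all genes tested. The medians of the above and below genes were 0.49 and -0.57 for 4 months against adult and 0.02 and -0.08 for adult affected against control, where the first became 0.22 without control replicate 1.

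The rule itself was then applied to the ligament medians. With all 7 affected ligaments, 2 of the above genes met it (0.724% of all genes at the level minimum did), out of 28 above genes at that minimum, and 3 of the below genes met it (0.355%), out of 38. With the 3 ligaments aged 4 months alone, 10 of 34 above genes (29.4%) and 12 of 38 below genes (31.6%) met it, against 3.4% and 0.487% of all genes. With the 4 adult affected ligaments alone, 3 of 28 above and 3 of 38 below genes met it (10.7% and 7.89%). Of all genes, 1.76% and 2.18% did. The 3 ligaments aged 4 months are from the dogs whose capsules chose the genes, so their shares are not independent of that choice. The 4 adult affected ligaments are from dogs that gave no capsule, while some control and young dogs gave both tissues.

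These shares moved with the scaling. The ligaments aged 4 months had a lower share of fragments in the 10 most abundant genes than most adult affected ligaments (14.2% to 20% against 18.7% to 29.1%). On CPM scaled by TMM, a factor per library that sets the bulk of genes level, 4 above genes met the rule at 4 months (2.3% of all genes, with 1 other above gene on the opposite side) and 15 below genes did (1.28%). Over all genes the count also moved, from 373 to 245 above and from 48 to 127 below. What in the scaling moved these counts was not tested. With TMM scaling and all affected ligaments, 2 below genes met the rule (0.313% of all genes). Both scalings thus place more below genes outside both other ligament groups at 4 months than with all affected ligaments. The share of all genes rose as well, from 0.355% to 0.487% on CPM and from 0.313% to 1.28% with TMM. These are counts without a test.

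In summed level the ligament showed the capsule pattern in part. The below genes summed to 796, 975 and 1461 CPM in the 3 ligaments aged 4 months, to 1110 to 2445 CPM in adult affected, 1594 to 1915 CPM in control and 1761 to 2514 CPM in young ligaments. The ligaments aged 4 months were all under the lowest control, and 1 of them overlapped the adult affected ones. ENSCAFG00000029172 alone held 80.9 to 113 CPM at 4 months, 268 to 1101 CPM in adult affected and 199 to 529 CPM in control ligaments. These orders therefore lean in part on 1 gene, and the dogs aged 4 months are those whose capsules chose the genes. The above genes summed to 966, 1917 and 1381 CPM at 4 months, 742 to 1025 CPM in adult affected, 784 to 1026 CPM in control and 406 to 558 CPM in young ligaments.

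Embryonic hip held the below genes at a high level. It is whole hip, so tissue and age differ together from the capsule. The embryo median was above the affected capsule median in 42 of 43 below genes (67.1% of all genes at the level minimum) and at least 2 times it in 36 (25.4% of all), counts that the choice of genes by a low affected median favours. It was above both the control and young capsule medians in 35 of 43, against 58.5% of all genes. The shortest 25% of genes, which hold 24 of the 43 below genes, took 14.8% to 15.5% of fragments in the embryos, more than in any capsule or ligament (up to 13.5%); the part of gene length in these counts was not tested. The summed level was 3058 to 3179 CPM in the 3 embryos, above every capsule and ligament. For the above genes the embryo median was under the affected capsule median in 47 of 53 (34.9% of all genes, and again favoured by the rule) and above it in 6. It was under both other capsule medians in 23 of 53 (23.1% of all genes) and above both in 19 (57.1%). ENSCAFG00000010874 stood at 140, 153 and 151 CPM in the embryos and ENSCAFG00000012011 at 18.7, 16.8 and 21.6 CPM, both above the median of control and of young capsules.

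Membership depended on single capsules. Leaving out 1 of the 15 capsule libraries at a time kept 14 of the 53 above and 21 of the 43 below genes in every case. Without the adult affected capsule, 98 genes met the above rule and 84 the below rule, and these kept 40 of the 53 and 38 of the 43. On the median of the 3 capsules aged 4 months alone, 41 of the 53 and 38 of the 43 met the fold.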

How the data were processed

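The deposited table of all samples lists an estimated count of fragments per gene and library. The submitters' processing notes name the canFam3 genome, Cuffdiff 2.2.1, TopHat2 2.0.13, Bowtie2 2.2 and cutadapt 1.8; what each did, the annotation and whether counting used strand is not given in the sources used here. Libraries were strand-specific, per the labels' protocols. Of the deposited estimated counts, 0.332% were not whole (more than 1e-06 off), and counts were rounded for testing. A scaled fragment signal and FPKM values, deposited beside the counts, were used here for relative gene length and for 1 alternative scaling. Separate capsule and ligament tables were not used.

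CPM used library sums. Replicates came from different dogs. The 4 ligament comparisons used edgeR 4.0.16 (R 4.3.3) on the groups compared: filterByExpr, TMM, robust quasi-likelihood F test, Benjamini-Hochberg over all genes tested, called at an adjusted p under 0.05; DESeq2 1.42.0 was an alternative. The script was tested on simulated data. Named genes are the first 2 of each list, ranked by complete separation of the 4 affected capsules and then by the ratio to the nearer median; others were singled out after their values were seen. The gene and marker lists prepared by symbol could not be used. The rule, the lists and the comparisons were chosen with earlier results of these data known.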

Additional observations from a re-analysis of the deposited data

Results flagged for a closer look

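Groups of 4 to 10 libraries were searched for a highest or lowest library far from the others (Dixon's ratio). Of 55 groups, 13 had such a library. Chance gives about 1 in 20 for values that were not selected, but most of these genes were chosen by their capsule values or after their values were seen, so the number is a description and no test. The summed level of the above genes was 4085 CPM in young capsule replicate 2, against 617 to 742 CPM in the other 5 young capsules. The summed level of the below genes was 2023 CPM in the adult affected capsule, against 517 to 562 CPM in the other 3 affected capsules. Age class and library coincide there, since that group has 1 adult dog.

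Young capsule replicate 2 also stood apart for the 3 above genes that are high in capsule and low in ligament. It held 921 CPM of ENSCAFG00000001705 (others up to 67.9 CPM), 896 CPM of ENSCAFG00000013618 (others up to 73.5 CPM) and 1868 CPM of the third (others up to 233 CPM). The third gene had 8.87 CPM in young ligament replicate 3, against 4.65 to 5.13 CPM in the other young ligaments. ENSCAFG00000013618 had 1.16 CPM in affected ligament replicate 2, against at most 0.498 CPM in the other 6.

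ENSCAFG00000003016 was set by 1 library in each of 4 groups. It held 187 CPM in affected capsule replicate 2, 272 CPM in control capsule replicate 1, 27.9 CPM in young capsule replicate 4 and 39.8 CPM in affected ligament replicate 7, and the highest other library of these groups had 10.9, 0.413, 0.161 and 12.03 CPM. ENSCAFG00000029172 stood at 653 CPM in the adult affected capsule, against 25.4 to 88.3 CPM in the other affected capsules. ENSCAFG00000009569 stood at 339 CPM in affected ligament replicate 6, against 12.6 to 151 CPM in the other 6.

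In edgeR's test of 4-month against adult affected ligament, 4 above genes (all higher at 4 months) and 6 below genes (all lower) were called. A difference from control that changes with age reduces to this test, because the shared controls cancel out. The controls are all adult, so an age difference alone would give the same calls, and age and disease cannot be told apart here. Of all genes, 6.24% were higher and 8.35% lower in that test (1841 called), the share of above genes (8.7%) is close to this, and with 1 library left out the counts were 1 to 11 above and 1 to 7 below genes.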

How the results depend on the processing

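The count of above genes, 53, was 80 on the authors' scaled fragments, 201 with a fold of 1.5, 16 with a fold of 3 and 47 to 98 with 1 library left out. The count of below genes, 43, was 19 with means in place of medians, 238 and 10 with those folds and 32 to 123 with 1 library left out. By the rule on ligaments, the counts of 2 above and 3 below genes became 10 and 12 at 4 months alone, 4 and 15 at 4 months with TMM scaling (chosen after seeing the data), and 2 to 4 and 2 to 5 with 1 library left out.

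In affected against control ligament, DESeq2 called 10 genes (1 above gene); leaving out 1 library gave 0 to 1. In adult affected against control ligament, DESeq2 called 62 (1 above gene); leaving out 1 library gave 0 to 1850, with 0 to 4 above and 0 to 2 below genes. In 4-month against adult ligament, 1841 calls became 549 to 2203 with 1 library left out, with 1 to 11 above and 1 to 7 below genes. There DESeq2 called 2414 of 18239 genes. Of these, 11 were above genes (of 52 tested, 9 higher and 2 lower) and 8 were below genes (of 43 tested, 1 higher and 7 lower). In affected against young ligament, 1528 calls became 2481 by DESeq2, 649 (2 above genes) with only dogs that gave no capsule (1 young ligament), and 581 to 1746 with 1 library left out, with 2 to 12 above and 3 to 7 below genes. The causes were not tested. With DESeq2's size factors in edgeR, and without the low-count filter, no count moved by over 1.5 times.

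With the replicate number as a block, affected against control ligament gave 204 calls among 12271 genes. Of these, 2 were above and 2 were below genes (42 of each tested), with a median of 0.21 over the above genes. The fit is the same for adult affected ligaments, since the shared numbers are theirs. In affected against young ligament, 2354 of 12541 genes were called. Of 42 above genes tested 14 were called (13 higher, 1 lower), and of 42 below genes 7 were called, all lower. Deviations of same-numbered libraries correlated at -0.213 to 0.512, so the numbers were not taken as pairs. No paired analysis was possible for 4-month against adult ligament because these libraries share no replicate number.

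Depth limits single genes: 21 of 53 above and 29 of 43 below genes had an affected median under 10 CPM in libraries of 4034793 to 5936824 fragments. With 1 adult affected capsule, and no unaffected dog aged 4 months, age class, dog and disease cannot be told apart in capsule.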
